A study of Mus musculus with 16 samples.

Results

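Cmah and the genes that make, activate, transport and attach sialic acid were followed in mouse liver RNA. The 7 genes were Cmah, Gne, Nans, Nanp, Cmas, Slc35a1 and St6gal1, matched by symbol to 1 Ensembl gene ID each among the 24082 IDs of the gene table. Cmah was chosen on its values in these same libraries, where it was low in mice given both ethanol and iodomethylcholine (IMC), so every Cmah value is a description and carries no test. The other 6 were selected by their place in the pathway, with earlier results of these data known.

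Livers came from 16 female C57BL6/J mice, 4 in each of 4 groups, reported as 9 to 11 weeks old when put on the diets. All mice took a Lieber-DeCarli liquid diet, either the ethanol form, in which ethanol was stepped up to 6% vol/vol over 25 days, or an ethanol-free form given to pair-fed mice. IMC, a small molecule inhibitor of the gut bacterial enzyme that releases trimethylamine from choline, was given at 0.06% wt/wt in the diet to the IMC groups. The groups were Pair control (pair diet with vehicle), Pair IMC, EtOH control (ethanol diet with vehicle) and EtOH IMC. The study recorded lower food intake and body weight in ethanol-fed mice given IMC, so intake, weight and IMC cannot be told apart in that group. It also marked a difference in body weight between pair-fed mice with and without IMC, so weight and IMC cannot be told apart there either. Library numbers 1 to 8 held the Pair IMC and EtOH control mice and numbers 9 to 16 the Pair control and EtOH IMC mice. Within a diet IMC therefore cannot be told apart from the number range, nor can ethanol within control or IMC-treated mice. The difference between diets in the IMC effect sets numbers 9 to 16 against 1 to 8, so it cannot be told apart from the range either. Among the comparisons made here, averaging IMC over the diets is the one balanced over the range.

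Each library held between 9632659 and 12601199 reads on genes. The deposited values were read counts divided by a size factor set within each diet, and they sat 0.19 higher (log2, median gene) in ethanol-fed mice. All 16 libraries were therefore rescaled together, which brought that shift to -0.0024, and levels are given as rescaled counts unless stated. All 8 hepatocyte markers examined (such as Alb and Apoa1) had reads in every group. Their summed level ran from 1050000 to 1990000, while 6 B cell markers summed to 16.4 to 91.6. In whole liver, fewer cells of a type and less RNA per cell cannot be told apart.

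Sialic acids are acidic sugars that cap the glycans of secreted and membrane proteins, and the liver adds them to most plasma glycoproteins. Gne converts UDP-GlcNAc to ManNAc-6-phosphate, Nans condenses this with phosphoenolpyruvate, and Nanp removes the phosphate to leave free Neu5Ac. Cmas activates Neu5Ac to CMP-Neu5Ac in the nucleus, Cmah hydroxylates CMP-Neu5Ac to CMP-Neu5Gc in the cytosol, Slc35a1 carries CMP-sialic acid into the Golgi, and St6gal1 attaches it in alpha2,6 linkage to galactose on N-glycans. Human CMAH is inactive, so Neu5Gc is made in mice and not in humans.

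Cmah (ENSMUSG00000016756) lies on the plus strand of GRCm38 at chr13:24327404-24477377, with 10 annotated transcripts and 10660 bases of exon. St6gal1 (ENSMUSG00000022885) lies on the plus strand at chr16:23224740-23360350 and Cmas (ENSMUSG00000030282) on the plus strand at chr6:142756686-142775714. The table gives 1 value per gene and not per start site, so it does not say which start was used. The RefSeq promoter windows of these 3 genes (250 bases before to 50 after an annotated start, GRCm38.p6) are printed because their transcripts showed the largest IMC differences of the family in ethanol-fed mice. Capitals mark matches on either strand to 6 motifs searched, TATAAA (core promoter box), GGGCGG (bound by Sp1), GTTAAT (part of the HNF1 site), TTCNNNGAA (bound by STAT factors), CAGGTG (bound by helix-loop-helix factors) and TGACGT (part of the cyclic AMP response element).
Cmah window 1, chr13:24327154-24327453, plus: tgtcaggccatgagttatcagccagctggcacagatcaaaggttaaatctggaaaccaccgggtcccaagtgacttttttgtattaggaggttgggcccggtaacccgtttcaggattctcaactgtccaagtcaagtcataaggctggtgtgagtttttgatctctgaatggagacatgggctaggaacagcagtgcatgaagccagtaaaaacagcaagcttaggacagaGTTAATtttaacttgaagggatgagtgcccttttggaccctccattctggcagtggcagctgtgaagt
Cmah window 2, chr13:24414872-24415171, plus: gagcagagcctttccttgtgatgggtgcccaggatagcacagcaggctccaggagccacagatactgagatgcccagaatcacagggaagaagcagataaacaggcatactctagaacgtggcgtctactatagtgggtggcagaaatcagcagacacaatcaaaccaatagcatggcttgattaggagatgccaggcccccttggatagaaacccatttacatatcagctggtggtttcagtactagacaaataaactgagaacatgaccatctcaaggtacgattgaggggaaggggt
St6gal1 window 1, chr16:23224490-23224789, plus: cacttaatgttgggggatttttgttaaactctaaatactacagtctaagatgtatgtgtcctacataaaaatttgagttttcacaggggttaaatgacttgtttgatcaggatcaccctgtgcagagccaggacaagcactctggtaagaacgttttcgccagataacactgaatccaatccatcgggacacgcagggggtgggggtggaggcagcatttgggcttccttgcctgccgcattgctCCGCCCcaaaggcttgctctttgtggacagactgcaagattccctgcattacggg
St6gal1 window 2, chr16:23225771-23226070, plus: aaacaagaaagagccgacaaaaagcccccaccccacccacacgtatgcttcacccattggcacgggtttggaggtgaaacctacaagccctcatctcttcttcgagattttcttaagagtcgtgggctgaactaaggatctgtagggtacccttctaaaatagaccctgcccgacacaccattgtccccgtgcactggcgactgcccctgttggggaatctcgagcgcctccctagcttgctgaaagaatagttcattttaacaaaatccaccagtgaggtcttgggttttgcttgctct
St6gal1 window 3, chr16:23290220-23290519, plus: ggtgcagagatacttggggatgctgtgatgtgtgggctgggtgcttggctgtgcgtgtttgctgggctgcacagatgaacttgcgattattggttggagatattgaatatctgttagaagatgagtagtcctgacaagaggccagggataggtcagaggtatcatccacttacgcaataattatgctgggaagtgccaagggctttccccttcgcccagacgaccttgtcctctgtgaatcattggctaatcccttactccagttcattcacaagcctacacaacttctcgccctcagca
Cmas window 1, chr6:142756436-142756735, plus: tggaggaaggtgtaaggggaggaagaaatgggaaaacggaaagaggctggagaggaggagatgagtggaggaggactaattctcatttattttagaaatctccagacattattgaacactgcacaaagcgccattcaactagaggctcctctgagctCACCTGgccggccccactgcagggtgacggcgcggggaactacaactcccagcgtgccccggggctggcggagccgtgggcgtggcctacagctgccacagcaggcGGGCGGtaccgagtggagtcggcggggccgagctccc

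The first Cmah window held 1 match, GTTAAT beginning 18 bases before the start, a motif present in 7.10% of all 32851 promoter windows. The second Cmah window held none of the 6 motifs, and the last pair of St6gal1 windows held none either. GGGCGG, present in 35.7% of all windows, began 5 bases before the start in the first St6gal1 window and 13 bases after it in the Cmas window, where CAGGTG (20.2% of windows) also lay 93 bases before the start. The Cmah windows were 47.3% and 48.7% G or C with 3 CpG each, below the median over all windows of 52.7% and 7 CpG, whereas the Cmas window held 17 CpG. These matches describe letters in the windows and were not tested for a part in any change.

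Cmah transcripts were lowest in the livers that had both ethanol and IMC. In Pair control mice the 4 libraries read 1061, 1303, 1408 and 1452 rescaled counts, and in Pair IMC mice 739, 1195, 1354 and 1397. In EtOH control mice they read 1497, 1592, 1869 and 1950, and in EtOH IMC mice 372, 487, 527 and 636. All 4 EtOH IMC livers were below every other liver, all 4 EtOH control livers were above every other liver, and the 2 pair-fed groups overlapped. The group means were 1306 ± 175, 1171 ± 301, 1727 ± 217 and 505.2 ± 109 (SD, n = 4 each) in the order given.

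**Figure D1:**
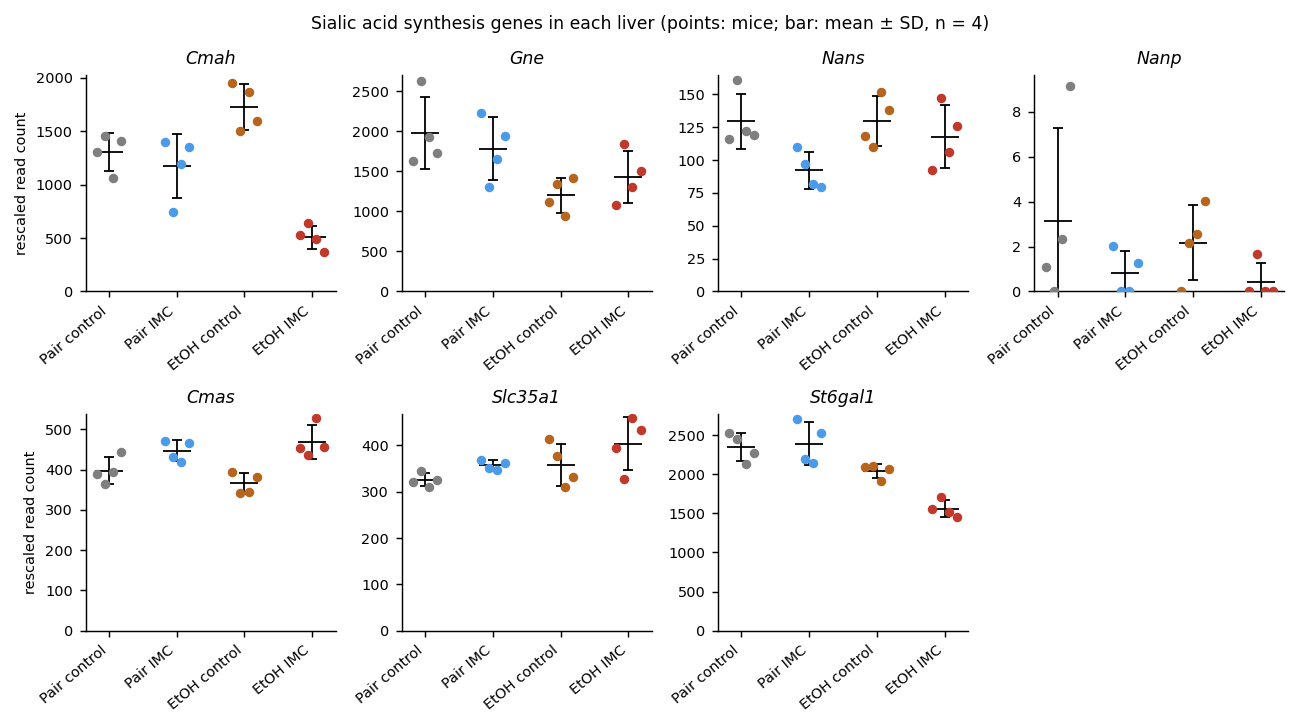
Rescaled read counts (y axis, from 0) of the 7 genes in each of the 16 livers, with 1 point a mouse and a bar for the mean ± SD of the 4 mice in each group (x axis). Cmah lay between 372 and 636 in EtOH IMC livers and between 1497 and 1950 in EtOH control livers, while Nanp did not exceed 9.16 in any liver.

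On the log2 scale Cmah was 1.79 lower with IMC in ethanol-fed mice (log2 fold change -1.79, SE 0.18, a 3.46-fold lower level), and -0.19 (SE 0.18) was the value in pair-fed mice. The difference between the 2 diets in the IMC effect was -1.60 (SE 0.26), which cannot be told apart from the library number range. The pair-fed value rested on Pair IMC library 4, the lowest of its group, since it became 0.02 without that library. Ethanol went with a Cmah level 0.40 (SE 0.18) higher in control mice and with one 1.20 lower in IMC-treated mice (log2 fold change -1.20, SE 0.18). Across the processing alternatives the IMC value in ethanol-fed mice ran from -1.80 to -1.65, and with each library left out in turn from -1.91 to -1.65.

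Markers of other liver cells were read beside the Cmah values. The summed level of 6 stellate cell markers was 4230 to 5080 in EtOH control livers and 2720 to 3680 in EtOH IMC livers, without overlap. With IMC in ethanol-fed mice 2 of the 6 were lower by limma, against 21.5% of all genes called. These were Reln (-1.26, adjusted p = 8.63e-05 by limma) and Col3a1 (-0.87, adjusted p = 0.0269 by limma). The log2 fold change was below 0 for 5 of the 6, and for Des it was 0.37 (adjusted p = 0.385 by limma). None of the stellate markers had a level of 0. The 6 B cell markers summed to 31.3 to 59.2 in EtOH control and to 16.4 to 36.9 in EtOH IMC livers, and none of the 3 tested was called by limma, nor was any of 7 Kupffer cell and macrophage markers or 6 sinusoidal endothelial markers in that comparison. Of the 8 hepatocyte markers 1 was called there, against the same 21.5%, namely Hnf4a, which rose by 0.62 (adjusted p = 0.00298 by limma). Hnf4a was also higher with IMC in pair-fed mice (0.71, adjusted p = 0.00322 by limma). The part of these cells in the Cmah level was not tested.

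Of the other members, 5 passed the filter on low values (at least 10 in at least 4 libraries), which 12537 genes passed, and Nanp did not. By limma with Benjamini-Hochberg adjustment over those genes, IMC changed 2 of the 5 in ethanol-fed mice, 1 higher and 1 lower, against 21.5% of all genes. In pair-fed mice it changed 0 of 5 against 9.48% of all genes, with 1 at an unadjusted p under 0.05 and 0 called by edgeR or DESeq2. Averaged over both diets 3 of 5 were called, against 28.1%. The difference between diets in the IMC effect was called for 0 of 5 against 1.11%, with 1 at an unadjusted p under 0.05, 0 by edgeR and 1 by DESeq2. Ethanol changed 1 of 5 in control mice against 11.9%, and 1 of 5 in IMC-treated mice against 16.4%. With 5 genes, these shares do not set the members apart from the background.

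**Figure D2:**
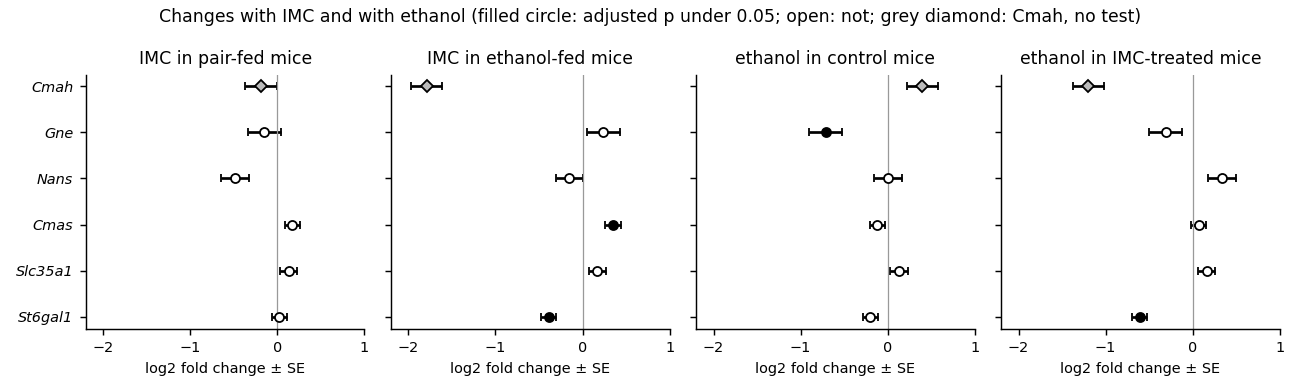
Log2 fold change ± SE (x axis) of the 6 members above the filter in 4 comparisons (panels), with filled circles for an adjusted p under 0.05 by limma, open circles for the rest and a grey diamond for Cmah, which was not tested. St6gal1 at -0.39 and Cmas at 0.35 are the filled points with IMC in ethanol-fed mice, and Gne at -0.71 is the filled point with ethanol in control mice.

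St6gal1, the enzyme that adds alpha2,6-linked sialic acid in hepatocytes and is also released into plasma, fell with IMC in ethanol-fed mice. EtOH control livers read 1914, 2064, 2087 and 2099 and EtOH IMC livers 1449, 1522, 1557 and 1711, so the groups did not overlap. The log2 fold change was -0.39 (SE 0.086, adjusted p = 0.00427 by limma), and a 2-sided exact permutation test gave p = 0.0286, the smallest that 4 against 4 libraries allow. In pair-fed mice, where livers read 2133 to 2532 without and 2143 to 2708 with IMC, the value was 0.02 (95% interval -0.16 to 0.21, adjusted p = 0.90 by limma). The difference between diets, -0.41 (SE 0.12), had an adjusted p of 0.111 by limma and 0.0446 by DESeq2, and over all alternatives the adjusted p ran from 0.0446 to 0.205.

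Ethanol in IMC-treated mice went with the largest St6gal1 difference, a log2 fold change of -0.61 (SE 0.086, adjusted p = 0.000246 by limma). In control mice the EtOH livers also lay below every Pair control liver, but the value of -0.20 (SE 0.086) did not pass the adjustment (adjusted p = 0.138 by limma), and on the values as deposited it was close to 0, at -0.01. Averaged over both diets IMC lowered St6gal1 by -0.18 (SE 0.061, adjusted p = 0.0318 by limma), a call kept in 7 of 16 fits with 1 library left out, with adjusted p up to 0.074 in the others (without library 1, 3, 4, 6, 7, 10, 12, 13 or 15). It was kept in 8 of 10 processing alternatives. Bace1, a protease that cuts St6gal1 free of the Golgi membrane, was lower with IMC in ethanol-fed mice by -0.30 (SE 0.099, adjusted p = 0.0367 by limma), a call lost without library 1, 3, 5, 11 or 15 (adjusted p up to 0.112). The Bace1 call was also lost by limma with the libraries of the comparison alone (adjusted p = 0.0532) and without the trend (0.0542). By edgeR without library 15 the adjusted p was 0.123. In pair-fed mice Bace1 averaged 638.1 without and 752.5 with IMC. Bace1 was named after its values were seen, as 1 of 2 proteases listed. The other, Sppl3, averaged 229.2 in EtOH control and 253.1 in EtOH IMC livers and was not called.

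Cmas, which makes the CMP-Neu5Ac that Cmah uses, rose with IMC in ethanol-fed mice. EtOH control livers read 342, 345, 381 and 395 and EtOH IMC livers 436, 453, 456 and 529, again without overlap. The log2 fold change was 0.35 (SE 0.087, adjusted p = 0.00791 by limma). Pair-fed livers read 364 to 444 without and 418 to 472 with IMC, a difference of 0.17 (95% interval -0.02 to 0.36, adjusted p = 0.229 by limma), and the difference between diets of 0.18 (SE 0.12) did not pass (adjusted p = 0.499 by limma). Averaged over both diets Cmas rose by 0.26 (SE 0.061, adjusted p = 0.0042 by limma), and this call held under every alternative and with each library left out. In these 8 ethanol-fed livers Cmas was higher with IMC, while St6gal1 and Cmah were lower.

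Gne (ENSMUSG00000028479, chr4:44034075-44084177, minus strand), the entry enzyme that CMP-Neu5Ac inhibits, was the member called with ethanol in control mice. Pair control livers read 1624, 1733, 1923 and 2624 and EtOH control livers 940, 1116, 1338 and 1422, with no overlap. The log2 fold change was -0.71 (SE 0.19, adjusted p = 0.0224 by limma). This call was lost on the values as deposited (-0.52, adjusted p = 0.0541 by limma) and without Pair control library 12, the highest of its group (-0.56, adjusted p = 0.0663), EtOH control library 1 (adjusted p = 0.055) or EtOH control library 5 (adjusted p = 0.0797). Pair IMC livers read 1302 to 2222 and EtOH IMC livers 1074 to 1843, a difference with ethanol of -0.31 (95% interval -0.72 to 0.10, adjusted p = 0.275 by limma). The difference between diets in the IMC effect was 0.39 (adjusted p = 0.508 by limma), so the ethanol values with and without IMC are not shown to differ. Neither IMC comparison passed, with -0.15 (95% interval -0.56 to 0.26) in pair-fed and 0.24 (95% interval -0.17 to 0.65) in ethanol-fed mice.

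Nans (ENSMUSG00000028334, chr4:46489248-46503632, plus strand) was the lowest of the members above the filter. Pair control livers read 116, 119, 122 and 161 and Pair IMC livers 79.4, 82.2, 97.4 and 110, which did not overlap, yet the value of -0.49 (SE 0.16) did not pass (adjusted p = 0.0644 by limma). EtOH control livers read 110 to 152 and EtOH IMC livers 92.1 to 147, with a value of -0.15 (95% interval -0.50 to 0.20). Averaged over both diets Nans fell by 0.32 on the log2 scale (SE 0.11, adjusted p = 0.0449 by limma), a call that edgeR did not make (adjusted p = 0.052). The call was kept in 5 of 10 processing alternatives and in 6 of 16 fits with 1 library left out. It was lost without Pair control library 12, 14, Pair IMC library 4, 6, 8, EtOH control library 1, 5, 7 or EtOH IMC library 9, 13, with adjusted p up to 0.0924.

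Exons of Nans share 1356 of their 4581 bases (29.6%) with Trim14 on the opposite strand, and without a stated strand setting in the counting, reads of the 2 genes cannot be told apart there. Trim14, a gene of antiviral signalling, was lower with IMC averaged over both diets by -0.74 (SE 0.16, adjusted p = 0.00244 by limma), the direction of the Nans value.

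Slc35a1 (ENSMUSG00000028293, chr4:34663257-34687438, minus strand), the Golgi CMP-sialic acid transporter, passed the test in none of the 6 comparisons by limma. Pair control livers read 311 to 344, Pair IMC livers 346 to 369, EtOH control livers 311 to 413 and EtOH IMC livers 327 to 458. The pair-fed groups did not overlap, and their log2 fold change was 0.13 (95% interval -0.09 to 0.36, adjusted p = 0.459). Nanp (ENSMUSG00000053916, chr2:151029685-151039398, minus strand), the phosphatase, had 12 and 3 reads in all in the Pair control and Pair IMC groups, and 9 and 2 in the EtOH control and EtOH IMC groups. At 0 to 9 reads a library, against a floor of 3, Nanp was below the filter on low values, and no test of it is given. Its exons share 146 of 1488 bases with Ninl on the same strand.

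Per kilobase of exon, St6gal1 had the highest level of the family in all 4 groups, from 317 ± 22.4 (SD, n = 4) in EtOH IMC to 487 ± 54.8 in Pair IMC livers. Gne was next by mean in every group (189 to 311), with Slc35a1 (142 to 176) and Cmas (77.6 to 99.4) below it, then Nans (20.1 to 28.3) and Nanp (0.285 to 2.12). Cmah moved through this order. It was the fourth in Pair control livers at 123 ± 16.4, overlapping Slc35a1, and the fourth in Pair IMC livers at 110 ± 28.2, overlapping Cmas. In EtOH control livers it was the third at 162 ± 20.3, overlapping both Gne and Slc35a1, and in EtOH IMC livers the fifth at 47.4 ± 10.2, below Cmas (99.4 ± 8.73) and above Nans (25.7 ± 5.28) without overlap.

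**Figure D3:**
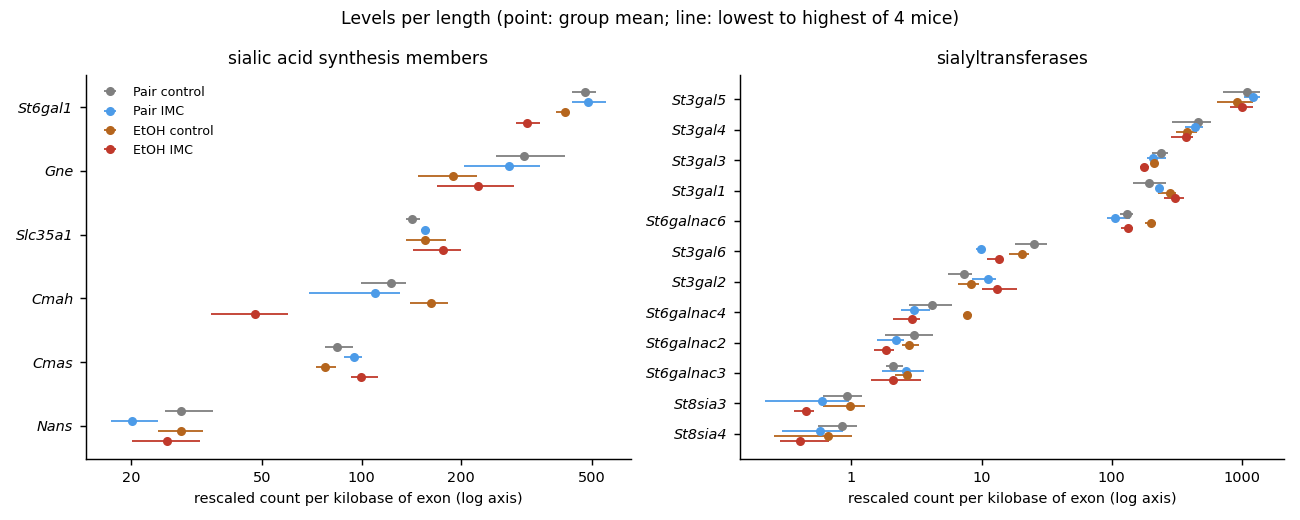
Rescaled count per kilobase of exon (x axis, log scale) of 6 members (left) and of 12 other sialyltransferases above the filter (right), with a point for the group mean and a line from the lowest to the highest of 4 mice. Cmah spans 47.4 in EtOH IMC to 162 in EtOH control livers and crosses Cmas and Slc35a1, and St6gal1 leads its panel in every group.

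The rest of the pathway was taken from 8 lists of 90 genes, 74 of which passed the filter. IMC changed 8 of the 74 in pair-fed mice (1 higher, 7 lower), or 10.8% against 9.48% of all genes, and 17 in ethanol-fed mice (10 higher, 7 lower), or 23.0% against 21.5%. With both diets averaged it changed 22 (10 higher, 12 lower), or 29.7% against 28.1%. Ethanol changed 8 in control mice (6 higher, 2 lower), or 10.8% against 11.9%, and 12 in IMC-treated mice (6 higher, 6 lower), or 16.2% against 16.4%. These shares lie near the background, so the pathway as a whole is not set apart. The difference between diets was called for 0 of 74 by limma, against 1.11% of all genes, with 16 at an unadjusted p under 0.05, 0 by edgeR and 4 by DESeq2. In pair-fed mice the count fell to 3 without Pair IMC library 4 and also when those 8 libraries alone were fitted.

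**Figure D4:**
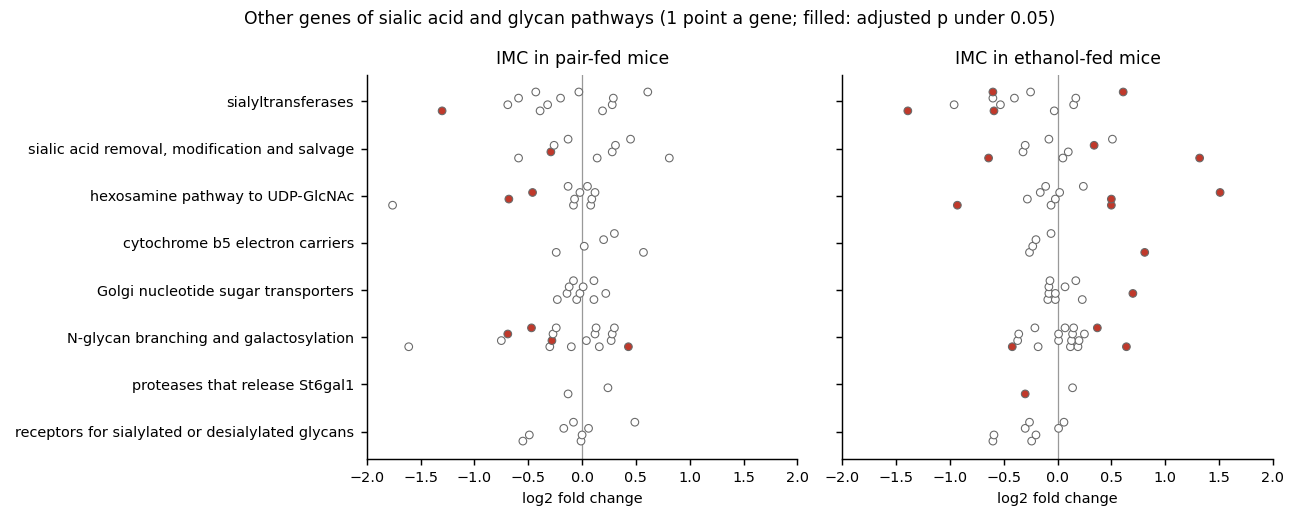
Log2 fold change with IMC (x axis) of the 74 other pathway genes above the filter, 1 point a gene, by list (y axis), in pair-fed (left) and ethanol-fed mice (right), with filled points for an adjusted p under 0.05 by limma. St3gal6 at -1.30 is the filled point farthest left in pair-fed mice, and Uap1l1 at 1.51 and Renbp at 1.32 are the filled points farthest right in ethanol-fed mice.

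Among the other sialyltransferases, enzymes that attach sialic acid in other linkages or to other acceptors, 12 of 19 passed the filter. IMC lowered 1 of them in pair-fed mice (8.33%, against 9.48% of all genes called). On the ethanol diet it lowered 3 and raised 1 (33.3%, against 21.5%). Averaged over both diets IMC lowered 5 and raised 1 of the 12, against 28.1% of all genes called. Ethanol raised 3 and lowered 0 of the 12 in control mice, against 11.9%. In IMC-treated mice ethanol changed 0 by limma against 16.4%, with 3 at an unadjusted p under 0.05 and 0 called by edgeR or DESeq2. The list holds only 12 genes, and whether it stands apart from the background was not tested. The median log2 fold change over the 12, each gene counted alike, was -0.26 with IMC in pair-fed livers and -0.47 in ethanol-fed livers. Over all genes tested it was 0.00 in both when rounded. The summed per-kilobase level of all 20 sialyltransferases, St6gal1 included, ran from 2090 to 2795 in EtOH control and from 2122 to 2691 in EtOH IMC livers. In pair-fed livers the sum ran from 2147 to 2898 without and from 2428 to 2995 with IMC. St3gal6, which makes alpha2,3 linkages on galactose, fell in both diets. Its Pair control livers read 111 to 195 and its Pair IMC livers 55.9 to 66.2 (-1.30, SE 0.17, adjusted p = 0.000216 by limma). EtOH control livers read 99.6 to 142 and EtOH IMC livers 68.0 to 90.7 (-0.59, SE 0.17, adjusted p = 0.0174 by limma), a call lost without library 3, 5 or 9 (adjusted p up to 0.0541).

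St6galnac4 and St6galnac6, which put alpha2,6-linked sialic acid on GalNAc of O-glycans and gangliosides, rose with ethanol in control mice and fell with IMC in ethanol-fed mice, so EtOH control, the group shared by both comparisons, stood highest. St6galnac4 read 17.8 to 38.7 in Pair control, 46.6 to 54.5 in EtOH control and 13.6 to 21.8 in EtOH IMC livers, with log2 fold changes of 0.92 (adjusted p = 0.017) and -1.39 (adjusted p = 0.000591) by limma. The rise of St6galnac4 was lost without Pair control library 10 (adjusted p = 0.0515). St6galnac6 read 555 to 706, 866 to 1051 and 570 to 704 in the same groups, with 0.61 (adjusted p = 0.00438) and -0.60 (adjusted p = 0.00265) by limma. Cmah stood highest in the same group, and so did the summed stellate cell markers, at 2900 to 4160 in Pair control, 4230 to 5080 in EtOH control and 2720 to 3680 in EtOH IMC livers. Of these 6 markers 2 were higher with ethanol in control mice by limma, against 11.9% of all genes called. These were Lrat (1.16, adjusted p = 0.00202 by limma) and Dcn (0.40, adjusted p = 0.0243 by limma). The part of stellate cells in these levels was not tested.

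St3gal1, which sialylates core 1 O-glycans, rose with ethanol in control mice (0.55, SE 0.16, adjusted p = 0.0303 by limma), a call lost without library 1, 3, 5, 14 or 16 (adjusted p up to 0.097). St3gal2 rose with IMC in ethanol-fed mice (0.61, SE 0.21, adjusted p = 0.0414 by limma), lost without library 1, 2, 3, 7, 9 or 13 (adjusted p up to 0.138). Its rise with IMC averaged over both diets (0.61, adjusted p = 0.0049 by limma) was kept in every fit. Averaged over both diets, IMC also lowered St3gal3 (-0.23, adjusted p = 0.0407) and St8sia3, an alpha2,8-sialyltransferase gene with 2.52 to 14.97 rescaled counts a library (-0.83, adjusted p = 0.0306 by limma). With 1 library left out, the St3gal3 call was lost in 11 of 16 fits (adjusted p up to 0.0864) and that of St8sia3 in 8 (up to 0.063). Processing alternatives also lost the calls of St3gal1 (2 of 11), St3gal2 in ethanol-fed mice (2 of 10), St3gal3 (3 of 10) and St8sia3 (1 of 9). St6gal1 made up 18.5% ± 3.95, 17.9% ± 1.91, 17.2% ± 2.21 and 13.6% ± 1.35 (SD, n = 4) of the summed per-kilobase level of all 20 sialyltransferases, in the group order used above. Each EtOH IMC share lay below the lowest EtOH control share of 15.3%.

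**Figure D5:**
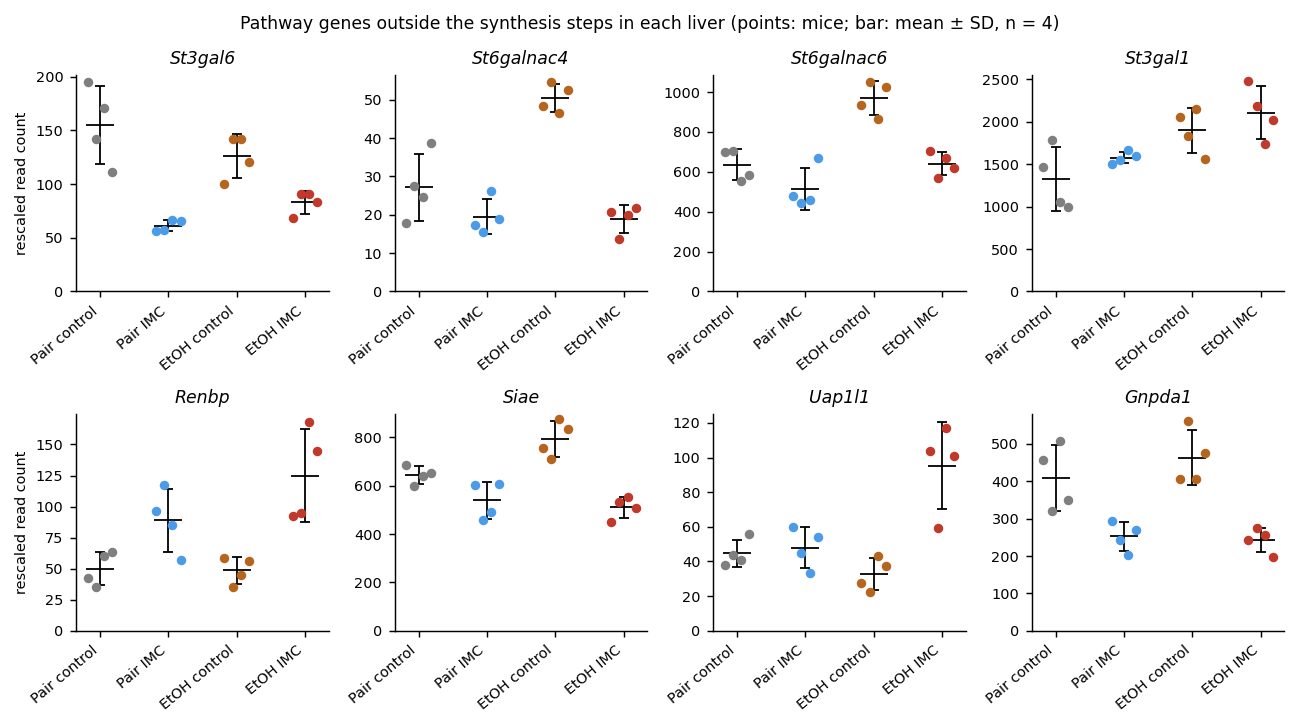
Rescaled read counts (y axis, from 0) of 8 other pathway genes in each liver, with 1 point a mouse and a bar for the mean ± SD of 4 mice. St6galnac4 and St6galnac6 are highest in EtOH control livers (46.6 to 54.5 and 866 to 1051), and Renbp and Uap1l1 reach their highest means in EtOH IMC livers (125 and 95.3).

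Genes that remove, modify or salvage sialic acid were changed by IMC in 3 of 9 tested in ethanol-fed mice (33.3%, against 21.5% of all genes) and in 1 of 9 in pair-fed mice (11.1%, against 9.48%). Renbp, which interconverts ManNAc and GlcNAc, read 35.3 to 58.3 in EtOH control and 92.1 to 168 in EtOH IMC livers (1.32, SE 0.25, adjusted p = 0.00167 by limma). Siae, an esterase that removes O-acetyl groups from sialic acid, read 710 to 876 and 451 to 552 (-0.64, SE 0.10, adjusted p = 0.000386 by limma). These groups did not overlap for either gene.

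Slc17a5, the lysosomal sialic acid exporter, rose with IMC in ethanol-fed mice by 0.34 (SE 0.12, adjusted p = 0.0451 by limma). That call was lost in 9 of 16 fits with 1 library left out (adjusted p up to 0.153) and in 5 of 11 processing alternatives. Its rise with IMC averaged over both diets (0.32, adjusted p = 0.00752 by limma) was kept in every fit. Neu1, the lysosomal sialidase, fell with IMC in pair-fed mice (-0.29, SE 0.081, adjusted p = 0.0334 by limma) and was higher with ethanol in IMC-treated mice (0.28, adjusted p = 0.0268), where Neu3, the plasma membrane sialidase, was also higher (0.91, SE 0.30, adjusted p = 0.0486) and Casd1, the sialic acid O-acetyltransferase, lower (-0.56, SE 0.13, adjusted p = 0.0076). The fall of Neu1 was lost without library 4, 6, 8, 10, 14 or 16 (adjusted p up to 0.0898), its higher level without library 6, 8, 9 or 15 (up to 0.0768), and the Neu3 call in 11 of 16 such fits (up to 0.132). Processing alternatives lost these 3 calls in 1 of 11, 2 of 11 and 3 of 10 fits.

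In the hexosamine pathway, which supplies the UDP-GlcNAc that Gne uses, IMC changed 4 of 11 genes tested in ethanol-fed mice (3 higher, 1 lower), or 36.4% against 21.5% of all genes, and 2 of 11 in pair-fed mice (both lower), or 18.2% against 9.48%. Uap1l1, a relative of the last enzyme of UDP-GlcNAc synthesis, read 22.5 to 43.3 in EtOH control and 59.3 to 116 in EtOH IMC livers (1.51, SE 0.24, adjusted p = 0.000409 by limma). Gnpda1, a glucosamine-6-phosphate deaminase, fell in both diets, from 406 to 562 down to 197 to 274 in ethanol-fed livers (-0.93, SE 0.16, adjusted p = 0.000613 by limma) and by -0.68 in pair-fed livers (SE 0.16, adjusted p = 0.0125 by limma, and 0.0506 without Pair IMC library 6). Nagk, a kinase of salvaged GlcNAc and ManNAc, fell in pair-fed mice (-0.46, SE 0.13, adjusted p = 0.0297 by limma). That call was lost without library 4, 6, 14 or 16 (adjusted p up to 0.108) and in 1 of 11 processing alternatives. The Nagk call with IMC averaged over both diets (-0.37, adjusted p = 0.0056 by limma) was kept in every fit. Amdhd2, which removes the acetyl group of GlcNAc-6-phosphate, rose with IMC in ethanol-fed mice (0.50, adjusted p = 0.00571 by limma), a call kept in every fit. With ethanol in control mice Amdhd2 was lower (-0.41, SE 0.12, adjusted p = 0.0298 by limma). The ethanol call was lost without library 3, 5, 7, 14 or 16 (up to 0.0972), on the values as deposited (0.178) and with the libraries of the comparison alone (0.0537).

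Cmah takes its electrons from cytochrome b5. Of 5 cytochrome b5 and reductase genes tested, Cyb5r1 rose with IMC in ethanol-fed mice, from 67.0 to 101 up to 121 to 156 (0.81, SE 0.24, adjusted p = 0.0242 by limma), a call lost without library 1, 5, 9, 13 or 15 (adjusted p up to 0.0711). Cyb5a, the main microsomal form, fell by -0.24 with IMC averaged over both diets (SE 0.077, adjusted p = 0.029 by limma), lost without library 3, 4, 7, 9 or 14 (up to 0.0675). The Cyb5a call was also lost in 2 of 10 processing alternatives. Cyb5b rose with ethanol in control mice (0.42, SE 0.10, adjusted p = 0.0139 by limma), and Cyb5r3, the NADH-cytochrome b5 reductase, was lower with ethanol in IMC-treated mice (-0.45, SE 0.11, adjusted p = 0.0104 by limma, and 0.0852 on the values as deposited).

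Among genes that build the N-glycans St6gal1 acts on, 4 of 17 changed with IMC in pair-fed mice (23.5%, against 9.48% of all genes) and 3 of 17 in ethanol-fed mice (17.6%, against 21.5%). Fut8, the core fucosyltransferase, fell in pair-fed livers from 104 to 131 down to 62.0 to 93.2 (-0.69, SE 0.14, adjusted p = 0.00498 by limma). In ethanol-fed livers the value was -0.42 (adjusted p = 0.0357 by limma), a call lost without library 1, 3, 5, 9, 11 or 13 (up to 0.0991). That call was also lost in 2 of 11 processing alternatives. The Fut8 call with IMC averaged over both diets (-0.55, adjusted p = 0.000457 by limma) was kept in every fit. B4galt1, which adds the galactose that St6gal1 caps, fell in pair-fed mice (-0.47, SE 0.14, adjusted p = 0.0378 by limma), and Man2a2, a Golgi mannosidase, rose (0.43, SE 0.12, adjusted p = 0.0254). The B4galt1 call was lost without library 2, 4, 8, 12 or 16 (adjusted p up to 0.11) and the Man2a2 call without library 2, 4, 10 or 12 (up to 0.0803). Processing alternatives lost the B4galt1 call in 3 of 11 fits and the Man2a2 call in 1 of 11. The rise of Man2a2 with IMC averaged over both diets (0.32, adjusted p = 0.00814 by limma) was kept in every fit. Slc35d1, a Golgi transporter of UDP-glucuronic acid and UDP-GalNAc, rose with IMC in ethanol-fed mice (0.70, SE 0.12, adjusted p = 0.000862 by limma).

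Of 8 receptors for sialylated or desialylated glycans tested, IMC changed 0 by limma in either diet (1 at an unadjusted p under 0.05 in ethanol-fed and 0 in pair-fed mice, and 0 by edgeR or DESeq2), against 9.48% of all genes in pair-fed and 21.5% in ethanol-fed mice. Lgals1, a lectin that binds galactose, rose with ethanol in control mice from 135 to 164 up to 301 to 329 (1.07, SE 0.19, adjusted p = 0.00203 by limma) and was higher with ethanol in IMC-treated mice (0.78, adjusted p = 0.00994). Cd33, a sialic acid-binding receptor of myeloid cells, was lower with ethanol in IMC-treated mice (-0.74, SE 0.24, adjusted p = 0.0449 by limma). The call was lost in 8 of 16 fits with 1 library left out (adjusted p up to 0.125). It was also lost in 5 of 10 processing alternatives, DESeq2 among them (0.0556).

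The 5 genes whose log2 levels followed Cmah most closely over the 16 libraries were Vwa8 (Pearson r = 0.94), Chd6 (0.94), D3Ertd751e (0.93), 1500017E21Rik (0.93) and Blmh (0.93). The 16 livers fall into 4 groups that share treatment, and after removing the group means these r were 0.61, 0.78, 0.51, 0.67 and 0.83. Vwa8, a mitochondrial protein gene, averaged 2935 ± 131, 2694 ± 225, 3071 ± 102 and 1567 ± 273 over the groups in that order. These genes were selected for following Cmah, so a like order of the groups comes with the selection. Among the members, r with Cmah was 0.76 for St6gal1, 0.17 for Nans, 0.09 for Gne, -0.52 for Slc35a1 and -0.64 for Cmas, and within groups it was 0.64, 0.13, 0.36, -0.17 and 0.16. The r of Cmas thus came from differences between groups. Among the other pathway genes, r was highest for Siae at 0.77 and lowest for Slc35d1 at -0.83.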

How the data were processed

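Liver RNA of 16 mice was sequenced from Illumina TruSeq directional libraries; the authors used Trim Galore, FastQC, STAR on mm10 and edgeR, and the counting tool and its strand setting are not given in the sources used here. The methods call the reads single-end and the labels paired-end. The deposited signal values are read counts that the authors divided by a size factor: in every library 100% of values were whole multiples (within 0.01 of a read) of the value of 1 read, 0.906 to 1.18. The table had 27212 rows for 24082 Ensembl IDs (430 under several symbols), reduced to 1 row per ID. Positions and exon lengths came from GENCODE vM21, and promoters from RefSeq. The study's human samples were not used here.

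Reads were recovered and rescaled by a median ratio over 13121 genes with a read in all 16 libraries. log2(rescaled count + 1) of the 12537 genes with at least 10 in at least 4 libraries was fitted with limma 3.58.1 in R 4.3.3 (a mean per group, mean-variance trend, no covariate), with Benjamini-Hochberg adjustment over all genes tested and a threshold of 0.05. The design named limma for a table expected to hold such values, while the study's edgeR was run on recovered reads as an alternative (edgeR 4.0.16, and DESeq2 1.42.0). Fold changes of low genes are understated by the added 1. Intervals are 95% on 12 residual degrees of freedom. The smallest exact p for 4 against 4 libraries is 0.0286. Replicates were separate mice. The fit was checked on simulated data.

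The members and lists were chosen with earlier results of these data known. Genes named were the 7 members, in each comparison up to 6 other pathway genes with the largest called change, every called gene of the sialyltransferase, removal and cytochrome b5 lists, the 5 genes most like Cmah, and cell type markers. Bace1 and Trim14 (which overlaps Nans) were named after their values were seen. Alternatives were the values as deposited, quantile normalization, pseudocounts of 0.1 and 5, no filter or a mean of at least 100, the libraries of each comparison alone, no trend, edgeR, DESeq2 and each library left out in turn. A fit by edgeR without library 15, where the value of 1 read was 1.01, was added after seeing the data. In library 15, as in the others, 100% of values were whole.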

Additional observations from a re-analysis of the deposited data

Results flagged for a closer look

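In 108 groups of 4 livers (27 genes), 4 held a liver whose gap to the nearest other exceeded Dixon's 95% critical share of the group's range, and chance gives about 1 in 20. Nans read 161 in Pair control library 12 against 116 to 122 in the others of its group. Nanp read 1.69 in EtOH IMC library 11 against 0 in the others, which is 2 reads. Amdhd2, which removes the acetyl group of GlcNAc-6-phosphate, read 203 in Pair control library 16 against 159 to 164. St6galnac6 read 668 in Pair IMC library 8 against 442 to 477. No difference between the diets in the IMC effect passed the test by limma among the 25 genes examined for it.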

How the results depend on the processing

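Of 960 refitted values of the members (36 values), 906 were unchanged, 30 lost a call, 6 gained one and 18 turned sign. Unchanged meant the same direction and side of the threshold. For Cmah, which was not tested, it meant the same direction and a move of less than 1 SD within groups. The values that turned sign were Cmah, untested, and values of other members not called in either fit. With ethanol in control mice Cmas became 0.07 on the values as deposited, and Nans -0.01 with quantile normalization and -0.00 by DESeq2. Over the libraries left out, Cmah with IMC in pair-fed mice ran from -0.29 to 0.02 (the 0.02 without Pair IMC library 4), St6gal1 in the same mice from -0.04 to 0.07, Gne averaged over both diets from -0.02 to 0.12, the difference between diets for Slc35a1 from -0.03 to 0.13, and Nans with ethanol in control mice from -0.08 to 0.11. Of 55 named calls of other genes, 32 held in every fit and 23 were lost in at least 1. On the values as deposited, called members with ethanol in IMC-treated mice went from 1 to 4, other pathway genes from 12 to 29, and those with ethanol in control mice from 8 to 16, since ethanol groups sit 0.19 higher on that scale; over all genes 3000 and 3624 were then called with ethanol in control and IMC-treated mice (1488 and 2060 after rescaling), 93.4% and 87.8% of them higher (53.4% and 47.8% after rescaling). Levels beyond 1 SD as deposited were Cmas in Pair IMC (418.3), Slc35a1 in Pair control (304.8) and Pair IMC (334.2) and St6gal1 in EtOH control livers (2179). Called pathway genes moved to 3 with IMC in pair-fed mice when those libraries alone were fitted (691 of all genes against 1189), and to 5 with ethanol in control mice without the trend. Called differences between diets became 1 member by DESeq2, and among other pathway genes 1 with a pseudocount of 5, 1 with quantile normalization and 4 by DESeq2 (over all genes 139, against 80 without the filter, 82 without the trend, 338 by DESeq2 and 72 by edgeR without library 15). Averaged over both diets, called members fell to 1 with quantile normalization, and to 1 by edgeR without library 15, which called 7 pathway genes and 1352 of all genes with ethanol in IMC-treated mice; the cause was not tested. With each library left out in turn, called members and other pathway genes ran from 0 to 0 and 3 to 9 with IMC in pair-fed mice, 2 to 2 and 11 to 18 in ethanol-fed mice, 0 to 0 and 0 to 1 for the difference, 1 to 4 and 18 to 22 averaged, 0 to 1 and 4 to 9 for ethanol in control mice, and 1 to 1 and 7 to 14 in IMC-treated mice. The lowest counts came without Pair IMC library 4, EtOH control library 3 or EtOH IMC library 9, Pair control library 14 and EtOH IMC library 15. Likeness to Cmah within groups was 0.61 for Vwa8, 0.78 for Chd6, 0.51 for D3Ertd751e and 0.67 for 1500017E21Rik, and turned to 0.16 for Cmas. No paired analysis was possible because no replicate number is shared between groups.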
